A study of Zea mays with 18 samples.

Results

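The transcripts described here are those of o2 and of the zein genes z1C1_12 and dzs18 in immature maize (Zea mays) endosperm. Members were the array clones whose gene symbol or synonym was one of these 3 names, which gave 1 clone per gene, 3 of the 7466 clones with values. The platform annotation lists o2 as LOC542375, and its synonyms o2 and Opaque-2 come from the gene table. Wild-type and opaque2 (o2) mutant endosperm, both taken 14 days after pollination (DAP), were hybridised together on 2-colour cDNA arrays as poly(A) RNA. The comparisons were the inbred line B46 against its opaque2 mutant, the inbred line M14 against its opaque2 mutant, and a wild-type pool against a mutant pool (mixed), each pool made from the lines A619, B14A, B45, B46, B57, B66, B73 and M14. Each comparison had 3 independent pairs of samples, and each pair was put on 2 arrays with Cy5 and Cy3 exchanged, which makes 18 arrays and n = 3 per comparison. The labels name no o2 allele and do not say how many plants or ears entered a sample. The mixed pools hold B46 and M14 RNA too and average over 8 lines.

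The o2 gene encodes Opaque-2, a bZIP transcription factor of the starchy endosperm that binds to the promoters of the 22-kDa alpha zein genes. Zeins are the prolamin storage proteins of the maize kernel. They are made on the rough endoplasmic reticulum and packed into protein bodies, and the alpha zeins hold almost no lysine, so that kernels with less zein are opaque, soft and richer in lysine. The gene z1C1_12 encodes a 22-kDa alpha zein and dzs18 an 18-kDa delta zein, a class rich in methionine.

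RefSeq's genes for maize (Zm-B73-REFERENCE-NAM-5.0) included 47 with a zein symbol, of which 28 were protein-coding and 19 pseudogenes. Only 2 of these 47 were named on the array. The z1C subfamily alone had 15 genes, 8 of them protein-coding and 7 pseudogenes. In the gene order of that assembly z1C1_12 lay between the transcribed pseudogenes z1C1_11 and z1C1_13, with z1C1_1, z1C1_2 and z1C1_3 next. A cDNA spot can hybridise with near-identical copies, so the z1C1_12 values below may hold signal from other z1C genes. The neighbours of dzs18 were LOC100275652 and the long non-coding RNA gene LOC109940640, no zein genes, and o2 lay between LOC103632025 and LOC100193116.

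Values are the deposited log ratios, centred on the median of each array and signed as o2 over wild type. They are called log units because the base is not stated in the sources used here. A replicate value is the mean of the 2 arrays of a dye swap. Which way the deposited ratio runs is likely but not settled: the design text names wild type first, and each array, whatever its dyes, was taken to give wild type divided by o2. The signs of z1C1_12 and of pdk1 helped to set this reading. The signs, p-values, calls and ranks of both genes are therefore not independent of that choice and are no evidence for it. Under the reading used, the 2 arrays of a dye swap correlated over all clones at r between -0.35 and -0.018, negative in every pair. Arrays of the same dye orientation correlated at r between -0.34 and 0.44 (wild type on Cy5) and between -0.26 and 0.34 (wild type on Cy3). A second value therefore stands beside the fitted values and ranks of the 3 genes and beside the genes called with them, named turned by the labelled dyes, for which the deposited ratio was taken as Cy5 over Cy3 before the arrays of a pair were averaged. Turned in this way, the r of every dye-swap pair changes sign and is positive. The pair r therefore give the reading used no backing, and why they are negative under it was not tested. A ratio gives no level, so neither the presence of a transcript nor that of a tissue marker could be read from these data. In RNA from whole endosperm, fewer cells of a type and less RNA per cell cannot be told apart.

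The arrays differed in spread, with a median absolute deviation over clones between 0.16 and 0.57 log units. It was smallest on the arrays of M14 replicate 3 (0.21 and 0.16), with mixed replicate 3 at 0.24 and 0.22. On each array 1 value was shared by 33 to 202 clones. None of the 3 genes lay at that value on any array.

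Under the reading used, transcript of the regulator gene o2 was called lower in the B46 mutant and in the average, by less than 1 log unit. Turned by the labelled dyes neither was called (B46 -0.13, limma adjusted p = 0.776). The B46 call also ended when any 1 B46 replicate was left out. The place of the clone relative to the lesion of the mutant allele is not given, so its value does not check the labels. The replicate values in B46 were -0.84, -0.60 and -0.56 log units, those in M14 -0.49, -0.17 and -0.45, and those in the mixed pools -0.07, -0.56 and -0.06. All 9 lay below 0, and the 3 B46 values were the lowest, with mixed replicate 2 within 0.01 of the highest of them, while the M14 and mixed values overlapped each other. The arrays with wild type on Cy5 gave -1.17, -0.95 and -0.27 in B46, -1.004, -0.17 and -0.77 in M14, and 0.06, -0.07 and -0.22 in the mixed pools. Their partners with wild type on Cy3 gave -0.51, -0.24 and -0.86 in B46, 0.02, -0.16 and -0.13 in M14, and -0.21, -1.05 and 0.11 in the mixed pools. On single arrays o2 was thus below 0 on 6 of 6 in B46, on 5 of 6 in M14 and on 4 of 6 in the mixed pools. The highest array value was 0.11, on the array of mixed replicate 3 with wild type on Cy3.

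**Figure D1:**
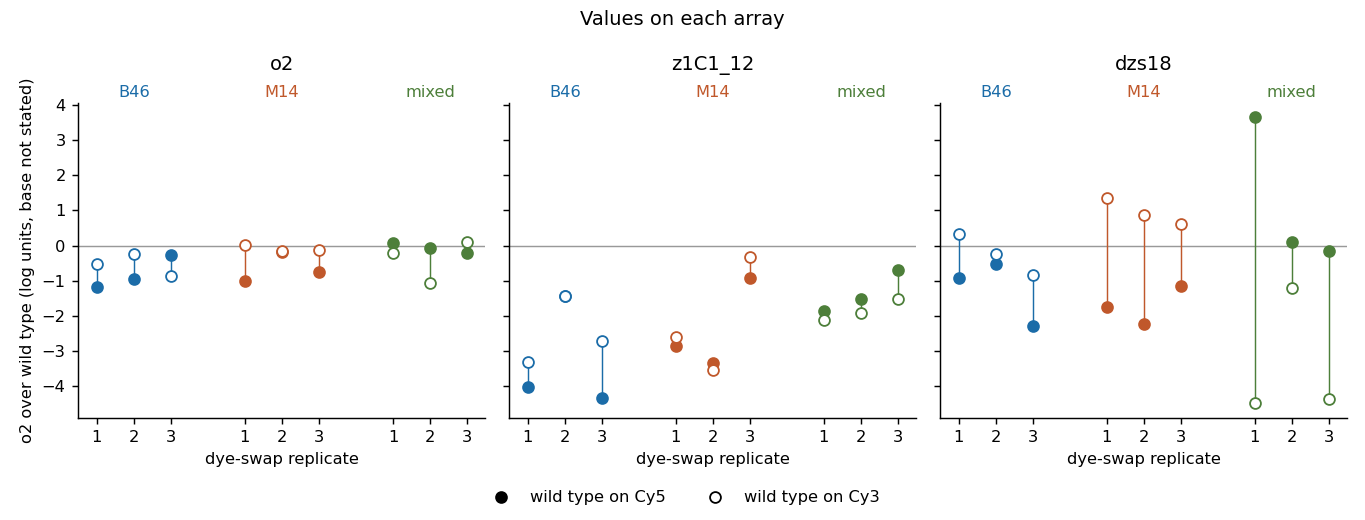
Log ratio of o2 over wild type (log units, base not stated) for o2, z1C1_12 and dzs18 on each of the 18 arrays, by comparison and dye-swap replicate; filled points had wild type on Cy5 and open points wild type on Cy3, and a line joins the arrays of a pair. For z1C1_12 both points of every pair lie below 0, between -4.36 and -0.31. The pairs of dzs18 in M14, of B46 replicate 1 and of mixed replicates 1 and 2 straddle 0.

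In B46 the mean for o2 was -0.67 ± 0.15 (SD, n = 3), or 1.59-fold lower if the logs are base 2 and 1.95-fold if they are natural (limma adjusted p = 0.0303). The average of the 9 replicates was -0.42 ± 0.074 (SE, 95% interval -0.60 to -0.25, limma adjusted p = 0.0150), and an exact two-sided sign-flip test over the 9 replicates gave p = 0.00391, the smallest that flips of 9 values can give. Of all clones 3.66% had a called fall in B46 and 4.94% in the average, and 5.28% lay below 0 in all 9 replicates. M14 had -0.37 ± 0.18 (limma adjusted p = 0.333) and the mixed pools -0.23 ± 0.29 (0.625, SD, n = 3 each), neither past the test. Without mixed replicate 2 the mixed mean was -0.07. Turned by the labelled dyes, the average of o2 was -0.08 (limma adjusted p = 0.833), 6 of 9 replicates lay below 0 and the mixed mean was 0.15; the exact sign-flip p was 0.434. The B46 call ended without B46 replicate 1 (-0.58, adjusted p = 0.165), replicate 2 (-0.70, 0.114) or replicate 3 (-0.72, 0.0823), and without M14 replicate 3 (0.0516) or replicates 1 and 3 of the mixed pools (0.0537 and 0.0524), each left out alone, in fits that pool the spread with the other comparisons.

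By rank o2 was the 525th lowest clone in the average, where 7.02% of all clones had a lower value than o2, and among the 489 clones with a gene name it was the 28th from the bottom. Turned by the labelled dyes, 25.1% of clones had a lower average. On single arrays the share of clones below it ran from 7.10% (B46 replicate 2, wild type on Cy5) to 66.4% (mixed replicate 3, wild type on Cy3), with a median of 27.4%. In M14 the array with wild type on Cy5 gave the lower share in each pair, 8.61%, 34.8% and 7.65% against 55.5%, 38.6% and 28.8%.

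The 22-kDa zein gene z1C1_12 had the lowest mean of the 3 genes in each comparison under the reading used. Its B46 replicates stood at -3.68, -1.43 and -3.54 log units, its M14 replicates at -2.73, -3.44 and -0.61, and its mixed replicates at -1.99, -1.72 and -1.10. The arrays with wild type on Cy5 read -4.04, -1.44 and -4.36 in B46, -2.86, -3.35 and -0.91 in M14, and -1.85, -1.52 and -0.68 in the mixed pools. Those with wild type on Cy3 read -3.33, -1.43 and -2.72, then -2.61, -3.53 and -0.31, then -2.12, -1.92 and -1.52, in the same order. All 9 replicates and all 18 arrays lay below 0, where 2.04% of all clones lay below 0 on all 18 arrays. By comparison 6.66% of clones were below 0 on all 6 arrays of B46, 4.35% on all 6 of M14 and 5.04% on all 6 of the mixed pools. The smallest values came from M14 replicate 3, with -0.91 and -0.31 on its arrays, and the largest single value was -4.36, in B46 replicate 3 with wild type on Cy5.

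The mean of z1C1_12 was -2.89 ± 1.26 for B46, -2.26 ± 1.47 for M14 and -1.60 ± 0.45 for the mixed pools (SD, n = 3 each). If the logs are base 2 these are 7.39-fold, 4.79-fold and 3.04-fold lower, and if they are natural 17.9-fold, 9.59-fold and 4.97-fold. By limma the B46 value was called a fall (adjusted p = 0.0371). The average of -2.25 (95% interval -3.05 to -1.45, adjusted p = 0.00883) was called too, while M14 (0.280) and mixed (0.463) did not pass in fits that called 0% of clones. At an unadjusted p under 0.05, limma had 917 clones in M14 and 693 in the mixed pools, z1C1_12 among them in both. Turned by the labelled dyes its means were -0.39, -0.11 and 0.25, the average was -0.08 (adjusted p = 0.817) and 5 of 9 replicates lay below 0. Over those turned values limma called 0.067% of clones in B46 and 0% elsewhere (M14, mixed and average). The B46 call ended without B46 replicate 1 (-2.49, adjusted p = 0.197) or replicate 3 (-2.56, 0.147), and without M14 replicate 1 (0.0621) or mixed replicates 1, 2 and 3 (0.0708, 0.0721 and 0.0698), while the average passed without any one replicate (adjusted p between 0.00449 and 0.0340).

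Ranks on 1 array do not depend on the base of the log ratio. Over the replicate means, z1C1_12 was the 25th lowest of 7466 clones in B46, the 5th lowest in M14 and the 31st lowest in the mixed pools. Of the 489 named clones it was the lowest in B46, in M14 and in the average, and the 2nd lowest in the mixed pools. These ranks hold for the reading used: turned by the labelled dyes, 14.3% of clones were lower than z1C1_12 in B46, 33.4% in M14, 84.3% in the mixed pools and 25.2% in the average. In the average 5 clones were lower, the lowest at -3.05, and none of the 5 has a gene name; 4 of them were below 0 on all 18 arrays. On single arrays z1C1_12 lay within the lowest 5% of clones on 13 of 18, namely 6 of B46, 4 of M14 and 3 of the mixed pools. Its weakest place was again M14 replicate 3, where 5.56% and 14.1% of clones were lower.

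**Figure D2:**
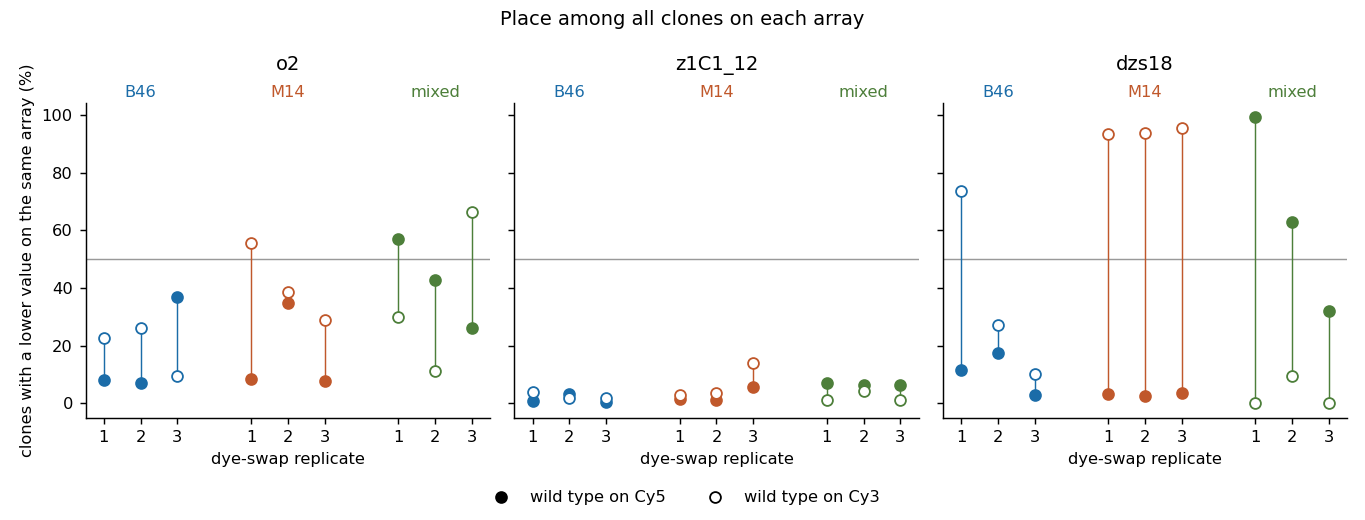
Share of the other clones with a lower value on the same array (%), for each gene and array, with the colours and point fills of the array plot; the grey line marks 50%. The points of z1C1_12 stay between 0.35% and 14.1%, those of o2 between 7.10% and 66.4%, and those of dzs18 between 0.054% and 99.2%.

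The 18-kDa delta zein gene dzs18 gave values that changed side with the dye. Its replicate values were -0.29, -0.37 and -1.55 log units in B46, -0.19, -0.68 and -0.27 in M14, and -0.41, -0.56 and -2.27 in the mixed pools. All 9 lay below 0, but only 3 of 9 pairs had both arrays on the same side of 0. In M14 all 3 arrays with wild type on Cy5 stood below 0 (-1.75, -2.23 and -1.16) and all 3 with wild type on Cy3 above it (1.37, 0.88 and 0.62). In the mixed pools the order was the other way round in each pair: 3.66, 0.10 and -0.16 with wild type on Cy5, against -4.49, -1.21 and -4.38 with wild type on Cy3. The gap between the arrays of a pair reached 8.15 log units in mixed replicate 1, against at most 1.63 for z1C1_12 and 1.02 for o2. On the array with wild type on Cy3 of that replicate dzs18 was the 5th lowest clone of all, and on its partner 99.2% of clones were lower.

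No comparison passed the test for dzs18. The means were -0.74 ± 0.71 in B46 (limma adjusted p = 0.362), -0.38 ± 0.26 in M14 (0.776) and -1.08 ± 1.03 in the mixed pools (0.449, SD, n = 3 each). The average was -0.73 ± 0.22 (SE, 95% interval -1.25 to -0.21, adjusted p = 0.107). The exact two-sided sign-flip test over 9 replicates gave p = 0.00391, the smallest it can give. Any clone below 0 in all 9 replicates gets this p, and 5.28% of all clones were. The mixed mean was -0.49 without mixed replicate 3, and the B46 mean was -0.33 without B46 replicate 3. Turned by the labelled dyes the means were -0.50 ± 0.31 for B46, -1.33 ± 0.38 for M14 and 2.28 ± 1.72 for the mixed pools, with limma adjusted p of 0.698, 0.392 and 0.713. The turned average was 0.15 (0.895), with 6 of 9 replicates below 0 and an exact two-sided sign-flip p of 0.844. All 6 turned values of B46 and M14 lay below 0, between -1.56 and -0.15, and all 3 of the mixed pools above it, at 4.08, 0.65 and 2.11; the same split was seen in 2.92% of all clones.

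**Figure D3:**
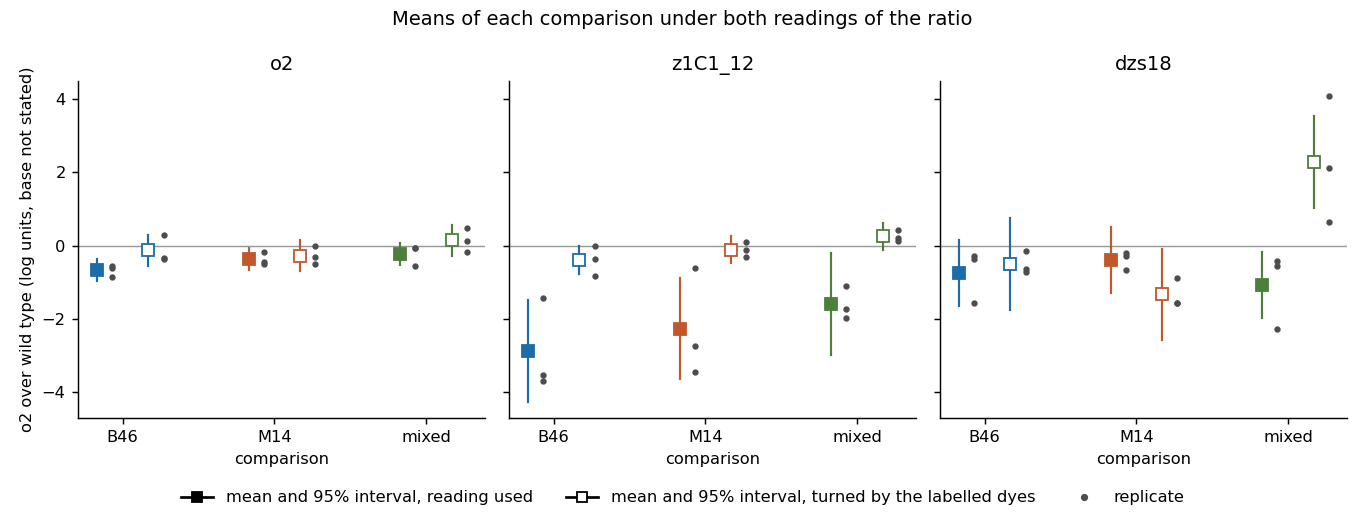
Mean of the 3 replicates of each comparison with its 95% interval from limma (log units, base not stated; unadjusted interval), for the reading used (filled squares) and for the values turned by the labelled dyes (open squares), with replicates as dots. The turned means of z1C1_12 lie between -0.39 and 0.25, and those of dzs18 run from -1.33 in M14 to 2.28 in the mixed pools.

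The 3 genes differed in how the 2 arrays of a dye swap compared. A replicate value is larger in size under the reading used than under the turned one exactly when both arrays have the same sign. This was so in 9 of 9 replicates for z1C1_12, in 6 of 9 for o2 and in 3 of 9 for dzs18. Over all clones the median was 4 of 9, and 2.68% of clones had 9 of 9. The median size over replicates was 1.99 log units under the reading used against 0.20 turned for z1C1_12, 0.49 against 0.32 for o2, and 0.41 against 0.89 for dzs18. The signs of z1C1_12 helped to set the reading used. Its count of 9 of 9 and its sizes are therefore not independent of that choice and are no evidence for it.

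**Figure D4:**
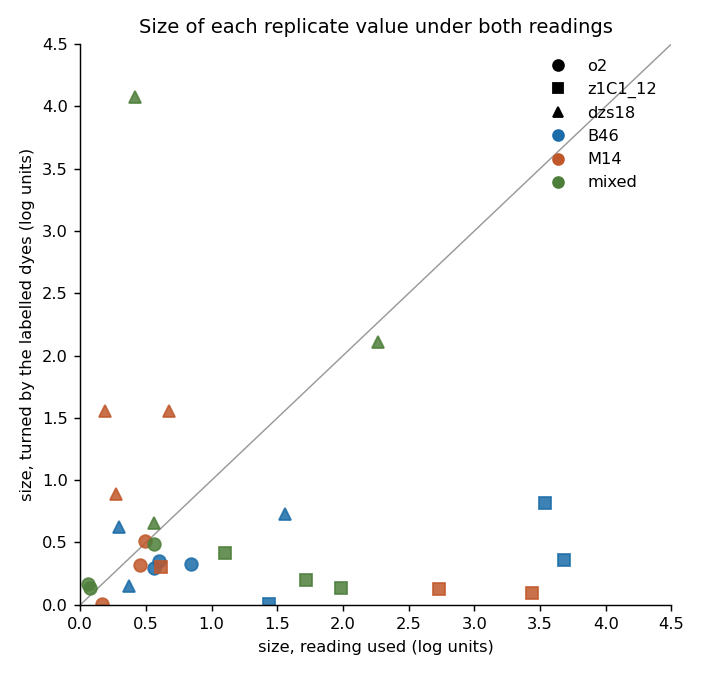
Size of each replicate value under the reading used (horizontal axis) and turned by the labelled dyes (vertical axis), both in log units; shapes are genes, colours are comparisons and the line marks equal sizes. All 9 squares of z1C1_12 lie below the line, and the turned size of dzs18 in mixed replicate 1 is 4.08 against 0.41.

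Among all clones z1C1_12 belonged to a group with low averages under the reading used. The average was under -1 log unit for 134 clones, 78 of which lay below 0 on all 18 arrays, and it was over 1 for 14 clones. The turned averages of those 134 clones had a median size of 0.073. With the values turned there were 29 clones under -1 and 92 over 1.

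**Figure D5:**
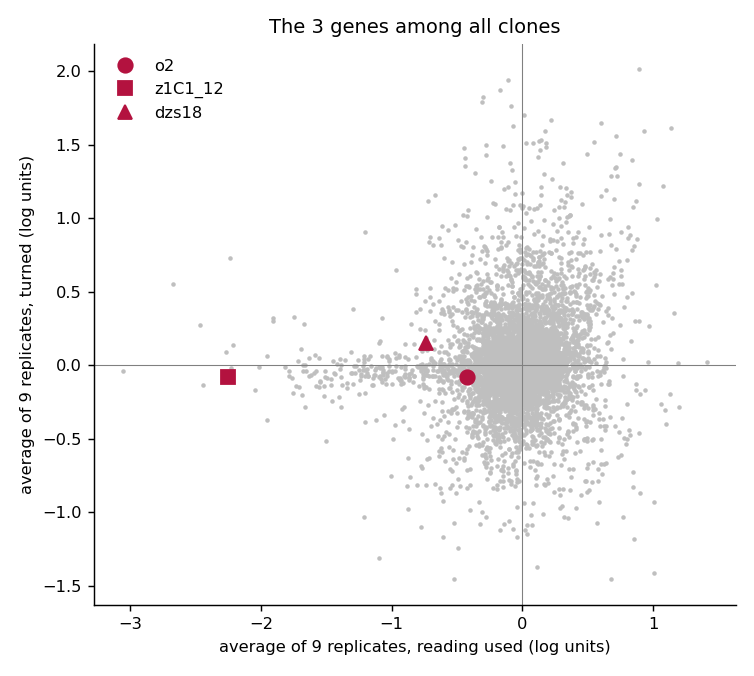
Average over 9 replicates for each clone under the reading used (horizontal axis) and turned by the labelled dyes (vertical axis), both in log units; grey dots are the other clones. The average of z1C1_12 is at -2.25 and -0.08, that of o2 at -0.42 and -0.08, and that of dzs18 at -0.73 and 0.15.

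The comparisons were set against one another to see whether the o2 effect on these transcripts differed between backgrounds. The means of o2 and z1C1_12 were lowest in B46, followed by M14 and the mixed pools, and those of dzs18 were lowest in the mixed pools, followed by B46 and M14. No difference between neighbours in these orders passed limma's test. For o2 the difference B46 minus M14 was -0.30 (95% interval -0.72 to 0.13, limma adjusted p = 0.608) and M14 minus mixed -0.14 (-0.56 to 0.28, 0.917). The widest gap for o2, B46 minus mixed, was -0.44 (-0.86 to -0.01, unadjusted p = 0.0449, adjusted p = 0.902).

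For z1C1_12 the difference B46 minus M14 was -0.62 (95% interval -2.59 to 1.34, limma adjusted p = 0.819), and without M14 replicate 3 it was 0.20. B46 minus mixed was -1.28 (-3.25 to 0.68, 0.920) and M14 minus mixed -0.66 (-2.62 to 1.31, 0.916). The first of these was -2.01 without B46 replicate 2, and the second -0.07 without M14 replicate 2 and -1.48 without M14 replicate 3. These intervals are wide beside the means themselves, and a p that misses the threshold does not show that the comparisons had the same effect. For dzs18 B46 minus M14 was -0.36 (-1.63 to 0.91, 0.842), B46 minus mixed 0.34 (-0.93 to 1.61, 0.948) and M14 minus mixed 0.70 (-0.57 to 1.97, 0.862). The sign of the first turned without B46 replicate 3 (0.045) and that of the second without mixed replicate 3 (-0.25). In each of the 3 differences limma called 0% of clones, with 733, 394 and 376 clones at an unadjusted p under 0.05.

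For the turned values, the differences were 0.15, -0.28 and -0.43 for o2, in the order B46 minus M14, B46 minus mixed and M14 minus mixed. They were -0.28, -0.64 and -0.36 for z1C1_12 and 0.83, -2.78 and -3.61 for dzs18. No clone was called among them (limma, 0% in each), with 441, 1336 and 1299 clones at an unadjusted p under 0.05. The adjusted p of dzs18 was 0.202 for B46 minus mixed and 0.175 for M14 minus mixed.

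No correlation between the 3 genes across replicates passed its test. Over the 9 replicate values the Pearson correlation of o2 with z1C1_12 was r = 0.31 (exact permutation p = 0.402, adjusted over 3 relations 0.603; Spearman rho = 0.45, exact p = 0.230, adjusted 0.538). Without the 2 replicates farthest from the median of o2 it was 0.072. That of o2 with dzs18 was r = -0.42 (exact p = 0.237, adjusted 0.603; rho = -0.35, exact p = 0.359, adjusted 0.538) and -0.12 without 2 replicates. That of z1C1_12 with dzs18 was r = -0.067 (exact p = 0.871 before and after adjustment; rho = 0.033, exact p = 0.948 before and after adjustment) and -0.24 without 2 replicates. With 3 replicates in each comparison, no correlation within a comparison was computed.

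Genes whose replicate values ran most like those of each member were named by Pearson's r over the 9 replicates, as a description. All points share arrays with the member and come from 3 comparisons. The named gene most like z1C1_12 was Asn1 (LOC606433, also listed as nac4, r = 0.89), which lay below 0 in 9 of 9 replicates, between -1.11 and -0.41. It was followed by LOC542547 (0.74), ham101 (LOC541950, 0.72), the histone deacetylase gene hda113 (LOC542568, 0.72) and les22 (LOC542606, 0.70), a gene of porphyrin synthesis. Among all other clones 28 had r over 0.9 with z1C1_12, none of them named. Of these 28, 22 were below 0 in all 9 replicates and 19 on all 18 arrays, and their averages ran from -2.27 to 0.20 with a median of -1.47. For o2 and dzs18 only 1 and 5 clones had r over 0.9.

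The named genes most like o2 were ZBP14 (LOC542474, r = 0.83), the pyruvate decarboxylase gene pdc1 (LOC542376, 0.79), the response regulator gene RR6 (LOC541632, 0.77), STY2 (LOC542192, 0.77) and hmg2 (LOC541951, 0.75). Their averages lay between -0.30 and -0.09. Those most like dzs18 were his1, a histone H1 gene (LOC542385, r = 0.90), kin15 (LOC541864, 0.85), LOC542610 (0.76), LOC541703 (0.75) and EF1A (LOC542581, 0.71), an elongation factor gene. The values of his1 ran from -2.33 to 0.18 and lay below 0 in 3 of 9 replicates, and dzs18 had -2.27 in mixed replicate 3. How far the r of his1 rests on 1 replicate was not tested. With the values turned, the r of Asn1 with z1C1_12 was 0.31, that of ZBP14 with o2 0.76 and that of his1 with dzs18 0.51.

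Other genes of the o2 pathway were few on the array. Of the list of o2 targets, storage protein regulators and opaque or floury loci, 2 genes were named: pdk1 (pyruvate orthophosphate dikinase, LOC542759), which fell in B46 and over the 9 replicates, and nkd1 (LOC542199), a transcription factor gene of the aleurone, called in neither. The gene pdk1 averaged -1.07 (limma adjusted p = 0.00414) and was below 0 in 9 of 9 replicates, while nkd1 averaged 0.15 (0.0954) and was above 0 in 9 of 9. The share of all clones above 0 in all 9 replicates was not computed, so the count of nkd1 is not shown to be rare. The sign of pdk1 helped to set the reading, so its fall is not independent of that choice. Of all clones 3.66% had a called fall in B46 and 4.94% in the average, and 5.28% lay below 0 in all 9 replicates. Turned by the labelled dyes, pdk1 averaged -0.12 and was not called, in an average where limma called 0% of clones. The storage protein list matched z1C1_12, dzs18 and, through its symbol only, the starch debranching gene zpu1 (LOC541711), whose 2 clones averaged -0.46 and 0.07.

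Of the 11 genes of protein folding in the endoplasmic reticulum, where zeins are made, none of 13 clones was called in any comparison or in the average (limma), beside 341 of all 7466 clones in B46, 516 in the average and 0 in M14 and mixed. At an unadjusted p under 0.05, limma had 4 of the 13 in B46, 1 in M14, 0 in the mixed pools and 3 in the average. Of all 7466 clones it had 1374, 917, 693 and 1605 in the same order. Their median was 0.03 in B46, -0.02 in M14, -0.01 in the mixed pools and 0.0005 in the average, beside 0.01, -0.002, -0.01 and 0.01 over all clones. The lowest average was -0.45 for PDIL1-1 (LOC606409), a protein disulfide isomerase, and the chaperone gene bip1 (LOC732808) averaged 0.04.

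Markers of the tissue and of its neighbours were read in the same way. Of the starchy endosperm markers, 5 genes with 8 clones were present. The called ones were o2 and z1C1_12 themselves, lower in B46 and in the average, where 3.66% and 4.94% of all clones were called lower. The starch synthase gene wx1 (LOC541854) had clones at 0.29, 0.26 and 0.02 and the branching enzyme gene ae1 (LOC542238) at 0.09 and 0.30, none called. The clones at 0.29, 0.26 and 0.30 (limma adjusted p = 0.0768, 0.0944 and 0.0648) were each below 0 in 1 of 9 replicates. Those at 0.02 and 0.09 were below 0 in 5 and 3 of 9. At an unadjusted p under 0.05, limma had 5 of the 8 clones in B46, 2 in M14, 2 in the mixed pools and 6 in the average. Of all 7466 clones it had 1374, 917, 693 and 1605 in the same order. Of 4 basal transfer layer genes 1 was called lower in the average (4.94% of all clones), betl2 (LOC542570) at -1.10 (limma adjusted p = 0.00551) and, turned by the labelled dyes, at -0.01 with no call. The other genes averaged near 0, with betl4 (LOC542004) at 0.01, mn1 (LOC542590) at -0.02 and mrp1 (LOC100037760) at -0.03. The embryo genes ole1 (LOC542263) and dhn2 (LOC542251) averaged -0.06 and -0.08, the aleurone gene PLTP -0.05, and the 2 green tissue genes -0.08 and -0.28, none called. The part of betl2 or of its cell type in the zein result was not tested.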

How the data were processed

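ImaGene 4.1 gave the signal and background of each spot of these 2-colour cDNA arrays, per the labels. How the authors corrected background and normalized, and which log base they took, is not given in the sources used here. Their deposited table held 1 signed log ratio per array and row, with a mean of 0 in each column. Of 16560 rows 14932 had values, and neighbouring rows were identical in pairs, leaving 7466 clones.

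Each array was centred on its median and multiplied by -1, and the arrays of a dye swap were averaged. The fit over 9 replicates used limma 3.58.1 (R 4.3.3) with 1 mean per comparison and a shared spread (6 residual and 1.51 prior degrees of freedom) and Benjamini-Hochberg adjustment over 7466 clones and calls at an adjusted p under 0.05. The script was tested on simulated data. The number of arrays limits the precision, and p-values measure the spread between these samples.

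Symbols came from the platform annotation (489 clones, 370 genes) and were updated by gene identifier (360 matched). The genes and lists, and the reading of the ratio, were chosen with earlier results of these data known. Named genes were the members, the fixed lists and the 5 most alike per member. Replicate numbers were not taken to pair samples. The same-number r lay between -0.034 and 0.10 and the other r between -0.15 and 0.093, and r of this size cannot exclude pairing. Alternatives were the turned dyes, centring, scaling, the variance model, separate fits, a replicate block, all 18 arrays, a filter on shared values, and each replicate left out. Promoter and protein sequences were not used here.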

Additional observations from a re-analysis of the deposited data

Results flagged for a closer look

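After turning by the labelled dyes, 3 differences between comparisons had every replicate of one comparison on the opposite side of 0 from every replicate of the other. For dzs18 M14 minus mixed was -3.61 log units (means -1.33 and 2.28, limma adjusted p = 0.175) and B46 minus mixed -2.78 (means -0.50 and 2.28, adjusted p = 0.202). For z1C1_12 B46 minus mixed was -0.64 (means -0.39 and 0.25, adjusted p = 0.236). None passed the test of the difference, and under the reading used no such split was seen in the 3 genes. The share of all clones with a split between 1 comparison and another is not given here, so these splits are not shown to be rare. With the values turned, limma had 1336 clones at an unadjusted p under 0.05 for B46 minus mixed and 1299 for M14 minus mixed.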

How the results depend on the processing

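Over the 21 values of the 3 genes (3 comparisons, the average and 3 differences each), leaving out 1 replicate kept the direction and side of the threshold in 174 cases, weakened 12 and reversed 3. The reading by the labelled dyes did so in 9 of 21, and the other settings in 126 cases, with 8 weakened and 1 strengthened. In the main fit only B46 and the average of o2 and z1C1_12 were called. The other values had no call to lose, so these counts say little about how stable the calls were. All 12 values weakened by leaving out 1 replicate were the B46 calls of o2 and z1C1_12. Turned by the labelled dyes, the weakened values were -0.13 (o2 B46), -0.084 (o2 average), -0.39 (z1C1_12 B46) and -0.0835 (z1C1_12 average), and the reversed ones 0.15 (o2 mixed), 0.15 (o2 B46 minus M14), 0.25 (z1C1_12 mixed), and for dzs18 2.28 (mixed), 0.15 (average), 0.83 (B46 minus M14), -2.78 (B46 minus mixed) and -3.61 (M14 minus mixed). With the trend and robust options of eBayes, o2 at -0.67 in B46 and -0.42 in the average had limma adjusted p = 0.0896 and 0.0560, and z1C1_12 at -2.89 in B46 had 0.0716. Fitted alone, B46 gave the same means with adjusted p = 0.217 and 0.240. With all 18 arrays and the pair as a random block, z1C1_12 in M14 (-2.26) passed at 0.00714. The replicate numbers were not taken to pair the samples, though pairing was not excluded. With the number as a replicate block, o2 in B46 (-0.67) and the average (-0.42) had limma adjusted p = 0.0903 and 0.0546. In the same fit z1C1_12 in B46 (-2.89) had limma adjusted p = 0.0885. Clones called in B46 went from 341 to 185 and in the average from 516 to 385. Calls in B46 were 159 with trend and robust options, 720 with all 18 arrays and 0 fitted alone (1032 at an unadjusted p under 0.05), and in the average 249 and 959. M14 and mixed, with 0 calls, had 40 and 58 after scaling of the arrays to 1 spread, and 277 and 205 with all 18 arrays. Leaving out 1 replicate gave, for o2, -0.72 to -0.58 in B46 and -0.46 to -0.37 in the average, and for z1C1_12 -3.61 to -2.49 in B46 and -2.52 to -2.05 in the average. For o2 the mixed mean ran from -0.32 to -0.07, B46 minus M14 from -0.36 to -0.20 and M14 minus mixed from -0.30 to -0.05. For dzs18 M14 ran from -0.47 to -0.23 (without replicate 2 of M14) and M14 minus mixed from 0.11 (without replicate 3 of mixed) to 1.03. The difference B46 minus M14 ran from -1.35 to 0.20 for z1C1_12 and from -0.59 to 0.045 for dzs18, and B46 minus mixed of dzs18 from -0.25 to 0.75. The causes of these changes were not tested.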
